A study of Mus musculus with 6 samples.

Results

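Smooth-muscle contractile genes were followed in mouse primary renal tubular epithelial cells (TECs) after *Sox9* knockdown. The set held 10 of the 30315 genes in the expression table: the calponins *Cnn1* and *Cnn2*, the actins *Acta2* and *Actg2*, the actin-binding genes *Tagln* and *Smtn*, the myosin light chain *Myl9*, the tropomyosins *Tpm1* and *Tpm2*, and the leiomodin *Lmod1*. The set was chosen by the FPKM difference of *Cnn1*, which was strongly lower with siSox9 in these libraries, and the other 9 genes were added for their role in the contractile apparatus. The rule was the gene name alone, and all 10 names were found, each in 1 row.

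The cells came from C57BL/6 mice and all of them underwent hypoxia/reoxygenation (H/R), that is 6 h in glucose-free medium at 1.0% O2 and then 18 h of reoxygenation in complete medium. Before H/R, by 12 h, they were transfected either with an siRNA against *Sox9* (siSox9, 3 libraries) or with the control siRNA (siNC, 3 libraries). No library without siRNA or without H/R entered the comparison, so every value here is a level after H/R and transfection. Libraries carried between 23893197 and 25725743 reads, recovered from the FPKM values (fragments per kilobase of exon, scaled to the depth of the library), so that 1 read on 1 kb of exon stood for 0.0389 to 0.0419 FPKM.

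Smooth muscle cells contract when myosin pulls on actin filaments, and phosphorylation of the regulatory light chain switches the motor on. Calponin, transgelin, smoothelin, caldesmon and tropomyosin bind those filaments and stabilise them or restrain the motor, while leiomodin starts new filaments. Many of these genes are turned on together by serum response factor (SRF) with its cofactors of the myocardin family, and several, *Acta2* above all, are also used as signs of a contractile or mesenchymal state in injured kidney tissue.

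The siRNA lowered its target. *Sox9*, a transcription factor switched on in injured tubules, stood at 25.7, 26.5 and 25.6 FPKM with siNC and at 8.93, 8.61 and 9.07 FPKM with siSox9. The *Sox9* groups lay far apart, with means of 25.96 ± 0.496 FPKM against 8.87 ± 0.236 FPKM (SD, n = 3 each).

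Within the set, knockdown went with lower levels of some contractile genes and not of others. Apart from *Cnn1*, 8 genes passed the filter on low values (1 FPKM on average over the 6 libraries), and of these *Lmod1*, *Myl9* and *Tpm2* fell, *Cnn2* rose, and 4 did not pass the test, namely *Acta2*, *Tpm1*, *Smtn* and *Tagln*. *Actg2*, with a mean below 1 FPKM, was not tested. The test was that of limma on log2(FPKM + 1) with Benjamini-Hochberg adjustment over all 12009 genes tested, with a threshold of 0.05, and a fold change on this scale understates the change of low genes. By the same test 17.6% of all genes were lower and 12.8% were higher with siSox9, so 3 of 8 genes lower and 1 of 8 higher are given as counts from which nothing is read, all the more because the set was drawn up with the fall of *Cnn1* known. After centring of each library on its median, the split over all genes was 1959 higher and 1765 lower, against 1532 higher and 2118 lower as deposited, while the counts in the set were 1 and 3 as before. The groups did not overlap for 6 of these 8 genes, and for 46.3% of all genes tested. The median difference of the 9 genes that passed the filter, *Cnn1* included, was -0.09 on the log2(FPKM + 1) scale, beside -0.01 over all genes. The smallest two-sided p that exact permutation allows here, with 3 libraries in each group, is 0.1. The labels do not say whether the libraries came from separate cultures or animals, so p-values measure only the spread between these libraries, which may be technical.

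**Figure D1:**
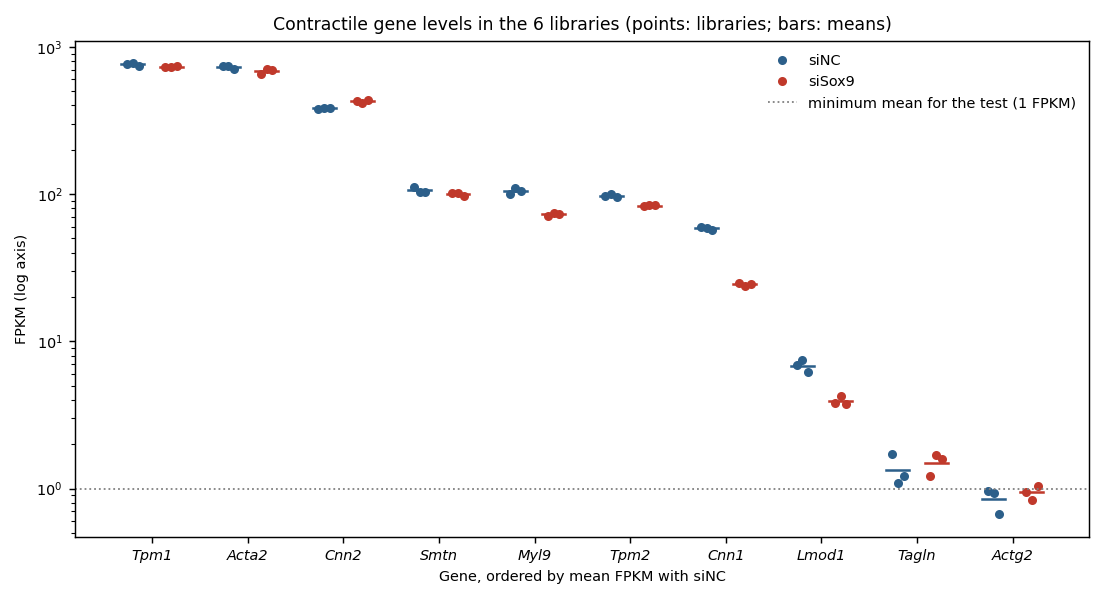
Level of the 10 contractile genes in each library. The vertical axis is FPKM on a log scale, the genes stand along the horizontal axis in order of their mean with siNC, points are single libraries (3 siNC, 3 siSox9) and short bars are group means; *Cnn1* sits at 57.2 to 59.6 FPKM with siNC and 23.9 to 25.0 FPKM with siSox9, while *Acta2* overlaps between groups.

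Calponins bind actin filaments and hold back the myosin motor. *Cnn1* encodes calponin 1, the isoform best known from differentiated smooth muscle, and lies on chr9:22099216-22109630, forward strand (coordinates are those of the deposited table, which match GENCODE M21 on GRCm38 for each of the 10 genes except *Acta2*, whose end differs). Its levels were 59.6, 59.1 and 57.2 FPKM with siNC and 25.0, 23.9 and 24.7 FPKM with siSox9. Every siSox9 library lay below every siNC library, with a gap far wider than the range inside either group. The means were 58.6 ± 1.31 FPKM and 24.5 ± 0.564 FPKM (SD, n = 3 each), a 2.39-fold lower level, and the difference was -1.22 ± 0.03 (SE) on the log2(FPKM + 1) scale. Because this difference chose the set it is a description, and no p is given for it here, although *Cnn1* was part of the fit over all genes. On this scale, which understates the change of low genes, the difference was among the 5 lowest of all genes tested. It rested on 3886 to 4051 reads per library with siNC and 1612 to 1763 with siSox9.

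*Cnn2* encodes calponin 2, which is also made in epithelial and other non-muscle cells, and lies on chr10:79988584-79996062, forward strand. It had 377.0, 385.0 and 381.4 FPKM with siNC and 425.9, 418.3 and 433.2 FPKM with siSox9. Here all siSox9 libraries were above all siNC libraries, the opposite order to *Cnn1*. Means were 381.2 ± 4.01 FPKM and 425.8 ± 7.45 FPKM, and *Cnn2* rose by 0.16 ± 0.03 (SE) on the log2 scale (95% interval 0.09 to 0.23, adjusted p = 0.00638, limma).

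*Cnn3*, the acidic calponin and a relative outside the set, averaged 136.0 ± 1.21 FPKM with siNC and 131.5 ± 3.48 FPKM with siSox9 and did not pass the test (-0.05, adjusted p = 0.265, limma). The summed level of the 3 calponins was 575.8 ± 4.39 FPKM with siNC and 581.9 ± 11.3 FPKM with siSox9. Inside that sum the *Cnn1* share was 10.2% ± 0.255 with siNC and 4.22% ± 0.0759 with siSox9, and the *Cnn2* share was 66.2% ± 0.195 and 73.2% ± 0.137. These shares follow from the level of *Cnn1*, which chose the set, and are given as a description without a test. *Cnn3* holds 10.3% of its 50-base stretches in common with other genes, so its level is less certain than those of *Cnn1* and *Cnn2*.

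The start regions of 4 genes are shown because *Cnn1*, *Lmod1* and *Myl9* had the largest falls of the set and *Cnn2* moved the other way. Of the 10 genes, 8 had an entry in the RefSeq promoter table for GRCm38.p6, each with 250 bases before and 50 after the start, and *Tagln* and *Actg2* had none. Letters run 5′ to 3′ on the strand of the gene, and capitals mark a match to a searched motif on either strand: the CArG box bound by SRF in *Myl9* and *Cnn2*, AACAAT (a core bound by SOX factors) in *Cnn1*, and CATTCC (the M-CAT core bound by TEAD factors, here read on the opposite strand) in *Lmod1*. The windows are chr9:22099003-22099302 for *Cnn1*, chr1:135324563-135324862 for *Lmod1*, chr2:156775214-156775513 for *Myl9* and chr10:79988350-79988649 for *Cnn2*, all on the forward strand.
Cnn1: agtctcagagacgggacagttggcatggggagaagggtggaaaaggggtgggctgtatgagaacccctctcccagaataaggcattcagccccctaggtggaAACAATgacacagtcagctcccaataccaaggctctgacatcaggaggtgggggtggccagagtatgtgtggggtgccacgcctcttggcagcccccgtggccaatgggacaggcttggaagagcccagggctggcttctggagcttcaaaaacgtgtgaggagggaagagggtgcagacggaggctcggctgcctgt
Lmod1: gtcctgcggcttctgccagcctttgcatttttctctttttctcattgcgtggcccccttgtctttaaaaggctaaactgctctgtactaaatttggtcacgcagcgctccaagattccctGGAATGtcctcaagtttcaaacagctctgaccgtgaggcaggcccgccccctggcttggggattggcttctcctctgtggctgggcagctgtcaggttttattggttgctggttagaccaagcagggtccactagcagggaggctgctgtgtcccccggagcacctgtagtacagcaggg
Myl9: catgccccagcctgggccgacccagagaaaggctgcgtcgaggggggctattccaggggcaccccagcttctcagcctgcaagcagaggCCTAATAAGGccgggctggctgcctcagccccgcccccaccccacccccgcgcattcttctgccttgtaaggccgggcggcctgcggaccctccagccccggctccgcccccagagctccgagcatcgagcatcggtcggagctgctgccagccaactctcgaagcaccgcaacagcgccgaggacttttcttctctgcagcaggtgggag
Cnn2: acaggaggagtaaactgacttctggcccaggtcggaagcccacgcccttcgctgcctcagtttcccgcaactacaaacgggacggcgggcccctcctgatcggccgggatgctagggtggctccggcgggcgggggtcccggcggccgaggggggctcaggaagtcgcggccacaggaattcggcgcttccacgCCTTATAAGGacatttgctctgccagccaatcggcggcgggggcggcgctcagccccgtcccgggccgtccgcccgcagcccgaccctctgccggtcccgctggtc
The CArG box, searched only as an exact CCWWWWWWGG with W for A or T, was found in 2 of the 8 windows, *Myl9* from 161 bases and *Cnn2* from 56 bases before the start, and in 1.63% of the 32851 windows in the table. Boxes with another base in the core, such as ccctatatgg in the *Acta2* window, were not counted. Of the 2 genes with the exact match, *Myl9* fell and *Cnn2* rose, and whether the motif had a part in either difference was not tested. AACAAT stood in 1 of 8 windows, that of *Cnn1* from 148 bases before the start, and in 10.7% of all windows. CATTCC, on either strand, stood in 4 of 8, those of *Lmod1*, *Tpm1*, *Smtn* and *Acta2*, and in 14.7% of all, and TATAAA in 0 of 8 and in 13.6%. No motif overlapped another in these windows. A match is a description of the letters and not a binding site.

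*Lmod1*, a leiomodin that nucleates actin filaments in smooth muscle, lies on chr1:135324807-135368065, forward strand. With siNC it had 6.87, 7.44 and 6.16 FPKM, and with siSox9 3.80, 4.28 and 3.77 FPKM. The lowest siNC library was well above the highest siSox9 library, although the gene was of low abundance, with 604 to 709 reads against 356 to 429. Means were 6.82 ± 0.641 FPKM and 3.95 ± 0.284 FPKM, 57.9% of the control level, and *Lmod1* fell by 0.66 ± 0.07 (SE) on the log2 scale (95% interval -0.82 to -0.49, adjusted p = 0.000774, limma). Among its relatives, *Lmod3* was below 1 FPKM and *Lmod2* had no row in the table.

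*Myl9* encodes the regulatory light chain that smooth muscle myosin carries and lies on chr2:156775420-156781658, forward strand. Its values were 100.7, 110.0 and 105.3 FPKM with siNC and 71.4, 74.6 and 73.0 FPKM with siSox9. The groups were separated by more than the range inside either of them. Means were 105.3 ± 4.62 FPKM and 73.0 ± 1.59 FPKM, 69.3% of the control level, and *Myl9* fell by 0.52 ± 0.04 (SE) on the log2 scale (95% interval -0.61 to -0.43, adjusted p = 0.000191, limma).

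The non-muscle light chains *Myl12a* and *Myl12b*, whose products serve the same place on myosin, gave differences of -0.0015 and -0.0013 on the log2 scale (adjusted p = 0.981 and 0.978, limma). The share of *Myl9* in the summed level of the 3 light chain genes was 15.1% ± 0.863 with siNC and 11.0% ± 0.277 with siSox9. The sum itself was 697.3 ± 9.84 FPKM and 664.2 ± 10.1 FPKM. *Myl12a* shares 16.4% of its 50-base stretches with other genes and *Myl12b* 25.4%, so how reads were split between them is uncertain, while *Myl9* shares none.

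Tropomyosins lie along the actin filament and decide which proteins reach it. *Tpm2*, beta tropomyosin, on chr4:43514711-43523765, reverse strand, had 97.0, 100.3 and 95.3 FPKM with siNC and 82.6, 83.9 and 83.9 FPKM with siSox9. All siSox9 values were lower, by a margin that was small beside those of *Cnn1*, *Lmod1* and *Myl9*. Means were 97.5 ± 2.52 FPKM and 83.5 ± 0.746 FPKM, 85.6% of the control level, and *Tpm2* fell by 0.22 ± 0.03 (SE) on the log2 scale (95% interval -0.29 to -0.15, adjusted p = 0.00194, limma). *Tpm1*, alpha tropomyosin, on chr9:67022590-67049406, reverse strand, was the most abundant gene of the set, with 770.3, 773.1 and 746.1 FPKM with siNC and 729.0, 730.8 and 740.6 FPKM with siSox9. The *Tpm1* groups touched closely without overlap, and the difference of -0.06 did not pass the test (95% interval -0.13 to 0.01, adjusted p = 0.196, limma).

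The relatives *Tpm3* and *Tpm4*, tropomyosins of most non-muscle cells, differed in opposite directions. *Tpm3* rose from 108.9 ± 0.883 FPKM to 130.6 ± 2.2 FPKM (0.26, adjusted p = 0.000675, limma). *Tpm4* fell from 528.3 ± 19.4 FPKM to 457.1 ± 20.2 FPKM (-0.21, adjusted p = 0.0120, limma). As a share of the summed level of the 4 tropomyosin genes, *Tpm2* went from 6.51% ± 0.0930 with siNC to 5.95% ± 0.0943 with siSox9 and *Tpm3* from 7.27% ± 0.146 to 9.30% ± 0.111. *Tpm3* shares 23.2% of its 50-base stretches with other genes, largely its copy *Tpm3-rs7*, and *Tpm4* 11.7%, so both are uncertain. The call of *Tpm4* was lost without siSox9 replicate 2 (adjusted p = 0.0522, limma), with no filter (0.0678) and with quantile scaling (0.0513), where the difference was -0.13.

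**Figure D2:**
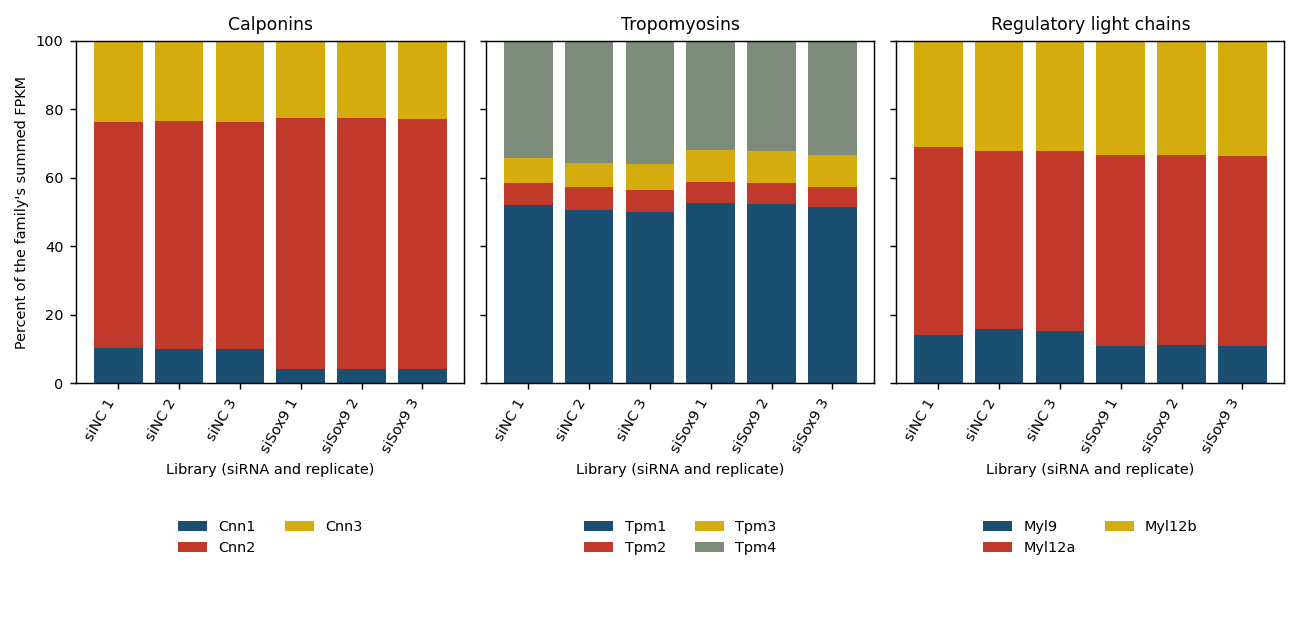
Make-up of 3 protein families in each library. Each bar is 1 library (3 siNC, 3 siSox9), its height is 100% of the summed FPKM of the calponins, the tropomyosins or the regulatory light chains, and colours mark the genes; the *Cnn1* share is 9.93% to 10.4% with siNC and 4.16% to 4.30% with siSox9, and the *Myl9* share is also smaller in every siSox9 library.

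*Acta2* encodes smooth muscle alpha actin and is the gene of this set most used as a sign of the contractile state (chr19:34241090-34255336, reverse strand). It stood at 738.7, 741.5 and 701.6 FPKM with siNC and at 651.8, 705.6 and 700.8 FPKM with siSox9. The 2 groups overlapped, and siSox9 replicate 1 was the lowest of the 6 libraries. Means were 727.2 ± 22.3 FPKM and 686.1 ± 29.8 FPKM, and the difference of -0.08 did not pass the test (95% interval -0.19 to 0.02, adjusted p = 0.179, limma; exact permutation p = 0.2).

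*Actg2*, enteric smooth muscle gamma actin (chr6:83512905-83536265, reverse strand), was near the limit of what the libraries show. Its values were 0.957, 0.931 and 0.672 FPKM with siNC and 0.949, 0.835 and 1.05 FPKM with siSox9, from 26 to 39 reads per library. The groups overlapped, and with no filter on low values the difference was 0.07 (adjusted p = 0.698, limma). Of the other actins, *Actb* and *Actg1*, the cytoplasmic actins of every cell, averaged 2335 ± 91.6 and 1720 ± 99.7 FPKM with siNC. *Actb* was 2116 ± 49.8 FPKM with siSox9, a fall of 0.14 (adjusted p = 0.0402, limma), and *Actg1* was 1820 ± 13.7 FPKM and did not pass (0.08, adjusted p = 0.228, limma). The call of *Actb* was lost in 10 of 14 alternatives, with TPM scaling (adjusted p = 0.0611, limma) and median centring (0.0918) among them. *Actg1* shares 37.4% and *Actb* 9.12% of their 50-base stretches with other genes, *Acta2* 0.326%. The sum over the actin genes was 4923 ± 137 FPKM with siNC and 4767 ± 85.4 FPKM with siSox9, and *Acta2* made up 14.8% ± 0.247 and 14.4% ± 0.398 of it.

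*Tagln* encodes transgelin (SM22 alpha), an actin cross-linker and a common smooth muscle marker, and lies on chr9:45929619-45936058, reverse strand. It had 1.72, 1.08 and 1.21 FPKM with siNC and 1.21, 1.70 and 1.58 FPKM with siSox9, only 52 to 86 reads per library. The groups overlapped widely, the difference was 0.10 (95% interval -0.19 to 0.39, adjusted p = 0.578, limma), and the interval shows how little this depth can tell. On the other strand *Pcsk7* and the gene model *Gm48529* overlap the 1988 exon bases of *Tagln*, by 1349 bases added over both. *Pcsk7* ends at 45929726, just inside the *Tagln* span, so nearly all of this overlap lies with *Gm48529*. Whether reads were counted by strand is not given in the sources used here. Some of these reads may thus belong to *Gm48529*, whose level was not looked up, or at that end to *Pcsk7*. *Pcsk7* stood at 8.15 ± 0.372 FPKM with siNC and 8.28 ± 0.291 FPKM with siSox9. The widespread relative *Tagln2* made up 99.7% of the transgelin sum in both groups. It averaged 575.7 ± 15.3 FPKM with siNC and 534.1 ± 5.73 FPKM with siSox9, a fall of 0.11 (adjusted p = 0.0407, limma). This call too was lost in 10 of 14 alternatives, with adjusted p up to 0.366.

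*Smtn* encodes smoothelin, an actin-associated protein of contractile smooth muscle, and lies on chr11:3517523-3540612, reverse strand, with a pair of antisense gene models over 753 of its exon bases. The values were 112.5, 102.8 and 103.9 FPKM with siNC and 101.1, 101.4 and 97.7 FPKM with siSox9. Although no siSox9 library reached the lowest siNC library, siNC replicate 1 stood above the rest, and the difference of -0.09 did not pass the test (95% interval -0.18 to 0.01, adjusted p = 0.153, limma). Its relative *Smtnl2* had 2.19, 2.47 and 2.50 FPKM with siNC and 1.13, 0.960 and 1.03 FPKM with siSox9. *Smtnl2* fell by 0.73 ± 0.07 (SE) on the log2 scale (adjusted p = 0.000449, limma), on 93 to 237 reads per library. Its mean FPKM was 2.29-fold lower with siSox9, beside 2.39-fold for *Cnn1*. *Smtnl1* was listed at 0 in all 6 libraries, with 0 reads recovered in each. A true level of up to about 3 expected reads could still give 0. For a gene with 1 kb of exon that is 0.117 to 0.126 FPKM, and less for *Smtnl1* with its 1761 exon bases.

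Counted over these families, 15 relatives outside the set had 14 rows in the table, and 10 were tested. Of them *Smtnl2*, *Tpm4*, *Actb* and *Tagln2* fell, *Tpm3* rose, and 5 did not pass, with differences from -0.05 to 0.08 and a median of -0.02 over the 10. Over all genes, 17.6% were lower and 12.8% higher. The number that fell was 1 without siSox9 replicate 2 and 2 without siSox9 replicate 1 or 3 or siNC replicate 2, so of these falls that of *Smtnl2* was the one that passed in every alternative in which it was tested.

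**Figure D3:**
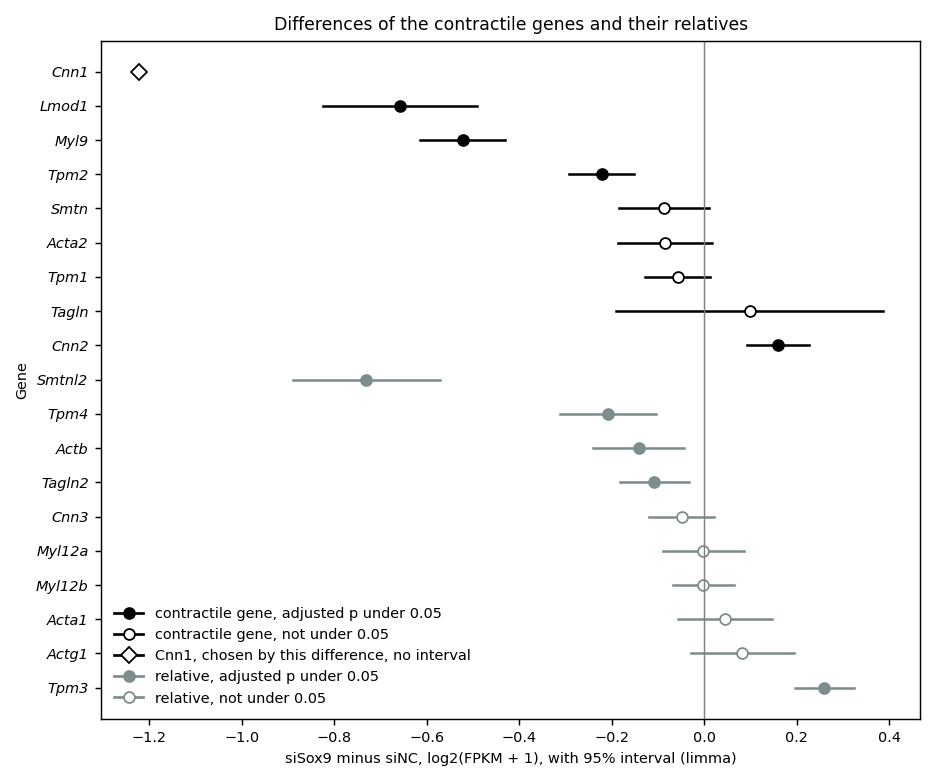
Difference between siSox9 and siNC for the 9 contractile genes that passed the filter (black) and their 10 tested family relatives (grey). The horizontal axis is the difference in log2(FPKM + 1), bars are 95% intervals from limma, filled points passed the adjusted threshold, and *Cnn1* is drawn as a diamond without an interval at -1.22; *Lmod1*, *Myl9* and *Tpm2* lie left of 0 and *Cnn2* right of it.

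In order of level with siNC, *Tpm1* was followed by *Acta2*, *Cnn2*, *Smtn*, *Myl9*, *Tpm2*, *Cnn1*, *Lmod1*, *Tagln* and *Actg2* (FPKM, which corrects for exon length). Only *Smtn* and *Myl9* could not be placed apart in this order, since their siNC libraries overlapped at 106.4 ± 5.31 and 105.3 ± 4.62 FPKM. With siSox9 the order was the same except that *Tpm2* came before *Myl9*, and no neighbours overlapped. The spread inside a group was largest for *Tagln*, whose coefficient of variation was 25.2% with siNC and 17.0% with siSox9, beside 2.24% and 2.30% for *Cnn1*. The sum over the 10 genes was 2248.5 ± 43.7 FPKM with siNC and 2132.9 ± 35.4 FPKM with siSox9, and *Tpm1*, *Acta2* and *Cnn2* made up most of it in both groups.

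**Figure D4:**
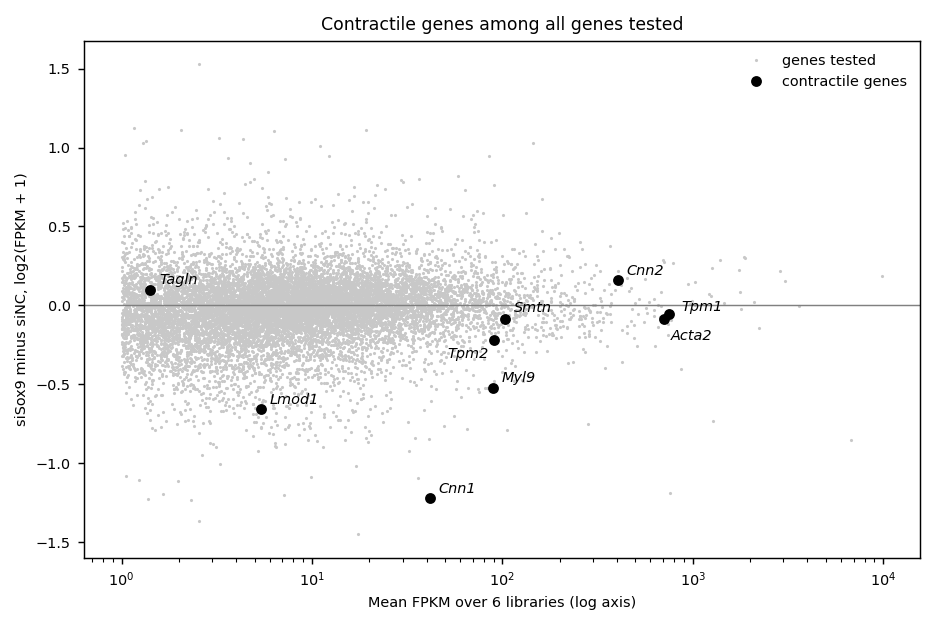
The 9 contractile genes that passed the filter (black, named) among the 12009 genes tested (grey). The horizontal axis is the mean FPKM over 6 libraries on a log scale and the vertical axis the difference between siSox9 and siNC in log2(FPKM + 1); *Cnn1* lies at -1.22, below most genes of its level, and *Acta2*, *Tpm1* and *Smtn* lie near 0.

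The genes whose log2(FPKM + 1) ran most like that of *Cnn1* over the 6 libraries, among the 4868 genes that averaged 10 FPKM or more, were *Fam84b* (Pearson r = 0.9997), *Sox9* (0.9994), *Ube2c* (0.9988), *Capn2* (0.9986) and *Cdk4* (0.9985). These 6 points fall into 2 groups, so r mainly describes how far the groups lie apart beside the spread within them. In the set the same measure was 0.985 for *Myl9*, 0.981 for *Tpm2*, 0.863 for *Tpm1*, 0.710 for *Smtn*, 0.684 for *Acta2* and -0.974 for *Cnn2*. After the group means were taken out, the closest genes were *Kin* (0.988), *Smn1* (0.979), *Cacul1* (0.977), *Dnajc15* (0.972) and *Erlin2* (0.963). None of these was named by the first measure, and the contractile genes ranged from -0.431 for *Myl9* to 0.630 for *Tpm1*. With 6 points less 2 group means, the highest r among 4868 genes can be this high by chance. Nothing is read from these values.

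The smooth muscle myosin motor and the kinase that switches it on were at low levels in these cells. *Myh11*, the smooth muscle myosin heavy chain, was below 1 FPKM, at 0.516, 0.524 and 0.437 FPKM with siNC and 0.340, 0.339 and 0.322 FPKM with siSox9. *Mylk*, the light chain kinase, was likewise low, at 0.817, 0.958 and 1.03 FPKM against 0.452, 0.434 and 0.433 FPKM. For both genes every siSox9 library was below every siNC library, but the filter kept them out of the test; with no filter the adjusted p was 0.0858 for *Myh11* and 0.0139 for *Mylk* (limma).

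Of 13 genes of the myosin motor and its kinase and phosphatase, 10 were tested, 1 fell, 3 rose and 6 did not pass, beside 17.6% lower and 12.8% higher over all genes, and the median difference was 0.01. *Cald1* encodes caldesmon, which like calponin restrains actomyosin, and had 177.1, 168.3 and 157.9 FPKM with siNC and 237.6, 235.7 and 220.0 FPKM with siSox9. It was higher in all siSox9 libraries and rose by 0.46 ± 0.05 (SE) on the log2 scale (adjusted p = 0.000836, limma), so the actomyosin inhibitors *Cnn1* and *Cald1* lay on opposite sides of 0. *Ppp1r12b*, a targeting subunit of the myosin phosphatase, rose by 0.40 (adjusted p = 0.00185, limma), and *Myh10*, a non-muscle heavy chain, fell by 0.21 (adjusted p = 0.0136, limma). The third gene that rose, *Ppp1cb*, is named after its value was seen and shares 16.4% of its 50-base stretches with an overlapping gene model. *Myh10* no longer passed with TPM scaling (adjusted p = 0.0939, limma), and without siNC replicate 1 the number that fell was 2.

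Of 16 genes that anchor or cross-link the filaments, 14 were tested, 4 fell, 1 rose and 9 did not pass, beside 17.6% lower and 12.8% higher over all genes, and the median difference was -0.02. *Palld*, palladin of the actin bundles, fell from 55.5 ± 2.01 FPKM to 46.2 ± 1.36 FPKM (-0.26, adjusted p = 0.00281, limma). *Vim*, the intermediate filament protein of mesenchymal cells and of injured tubules, fell from 129.1 ± 2.15 FPKM to 110.4 ± 2.39 FPKM (-0.22, adjusted p = 0.00187, limma). *Nexn* also passed, lower with siSox9, but its call was lost in 6 of 14 alternatives, with adjusted p (limma) from 0.0506 to 0.0967, among them those without siNC replicate 1 or 2 or siSox9 replicate 2. The gene that rose was *Actn1*, a count that was 0 without siSox9 replicate 2, and both genes are named after their values were seen.

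The list of SRF, its cofactors, LIM-domain genes, *Gata6* and the *Mef2* factors had a median difference of -0.18 over its tested genes. Of 13 genes 10 were tested, 6 fell and 4 did not pass, and 0 rose, beside 17.6% lower and 12.8% higher over all genes. The number that fell was 4 with no filter, with TPM scaling and without siSox9 replicate 2 or 3. The number that rose was also 0 at an unadjusted p under 0.05 and by limma voom on the recovered reads, and 1 without siNC replicate 1. *Csrp2*, a LIM protein first known from smooth muscle, had 12.6, 12.7 and 12.4 FPKM with siNC and 8.97, 8.58 and 9.0 FPKM with siSox9. *Csrp2* fell by 0.46 ± 0.03 (SE) on the log2 scale (adjusted p = 0.000178, limma). *Fhl1* fell by 0.39 (adjusted p = 0.000716, limma), from 117.1 ± 4.57 FPKM to 88.8 ± 3.42 FPKM, and *Csrp1* by 0.26 (adjusted p = 0.00123, limma), from 691.7 ± 15.8 FPKM to 578.3 ± 5.92 FPKM. All 3 encode LIM-domain proteins that sit on the cytoskeleton and can act with transcription factors. *Fhl2*, another LIM gene of the list, overlapped between groups and did not pass (-0.06, adjusted p = 0.251, limma). It is named after its value was seen.

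The factors themselves differed less. *Srf* averaged 26.1 ± 0.378 FPKM with siNC and 23.3 ± 1.43 FPKM with siSox9 (-0.16, adjusted p = 0.0380, limma). Its call was lost in 8 of 13 alternatives, with adjusted p from 0.0602 to 0.192, and leaving out any single library except siSox9 replicate 1 was enough. *Mkl2* (*Mrtfb*), a myocardin-related cofactor, fell from 9.73 ± 0.137 FPKM to 8.28 ± 0.0171 FPKM (-0.21, adjusted p = 0.00295, limma). *Mkl1* (*Mrtfa*) was at 17.2 ± 1.30 FPKM and 18.7 ± 0.865 FPKM and did not pass (0.11, adjusted p = 0.185, limma). *Myocd*, myocardin itself and the master cofactor of smooth muscle, was at 0.0666 FPKM or less in every library. *Tgfb1i1*, named after its value was seen, completed the 6 that fell, and its call was lost without siSox9 replicate 1 (adjusted p = 0.0698, limma), 2 (0.102) or 3 (0.0706).

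**Figure D5:**
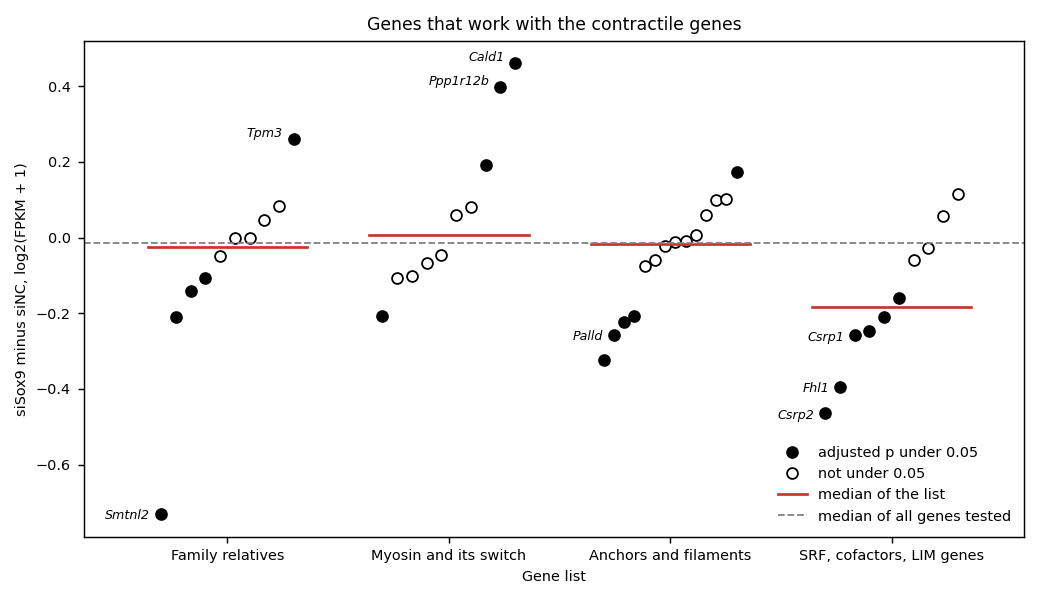
Differences of the genes that work with the contractile genes, by list. Each point is 1 tested gene, the vertical axis is the difference between siSox9 and siNC in log2(FPKM + 1), filled points passed the adjusted threshold, red bars are list medians and the dashed line is the median of all genes tested, -0.01; the SRF list has its median at -0.18 and the other 3 lists have theirs between -0.02 and 0.01.

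Markers of the cell types that could carry a smooth muscle signal were read in the same libraries. All 9 tubule epithelial markers were at 1 FPKM or more, and their summed level was 3715 to 3921 FPKM with siNC and 3887 to 4049 FPKM with siSox9, most of it from the keratins *Krt8* and *Krt18*. *Cdh16*, a cadherin of the kidney tubule, rose from 100.9 ± 2.84 FPKM to 129.7 ± 0.424 FPKM (adjusted p = 0.000307, limma), *Havcr1*, the injury marker KIM-1, rose from 65.4 ± 3.01 FPKM to 74.6 ± 4.66 FPKM (adjusted p = 0.0366, limma), and the other 7 did not pass. The call of *Havcr1* was lost with no filter (adjusted p = 0.104, limma). Of 11 markers of vascular smooth muscle and pericytes, 4 reached 1 FPKM, with sums of 113.3 to 125.0 FPKM against 116.3 to 120.7 FPKM, of which *Mcam* alone gave 109.4 ± 5.65 and 111.1 ± 1.96 FPKM. Without *Mcam* the other 10 summed to 8.38 to 9.24 FPKM with siNC and 6.54 to 7.52 FPKM with siSox9, lower in every siSox9 library. Of the 4 markers tested, 1 fell (*Notch3*), beside 17.6% lower over all genes. The other 3, *Des*, *Cspg4* and *Mcam*, overlapped between groups and did not pass. *Myh11*, *Myocd* and *Des* stand in this list and in a list above. *Kcnj8* had 3 reads or fewer in every library, *Abcc9* was at most 0.0247 FPKM, and *Myocd* and *Rgs5* were near 0. *Kcnmb1*, a potassium channel subunit of smooth muscle, was at 0.846, 0.988 and 0.951 FPKM with siNC and 0.547, 0.526 and 0.409 FPKM with siSox9. *Notch3*, a receptor of mural cells, fell from 1.91 ± 0.0894 FPKM to 1.47 ± 0.0893 FPKM (adjusted p = 0.0239, limma), and *Pdgfrb*, a receptor of pericytes under the filter, was at 0.728, 0.665 and 0.896 FPKM against 0.582, 0.640 and 0.550 FPKM. With no filter *Notch3* did not pass (adjusted p = 0.0763, limma), and *Kcnmb1*, lower with siSox9, was the only marker of this list that did (0.0254).

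Of 10 fibroblast markers 1 reached 1 FPKM, and their sum was 9.0 to 9.73 FPKM with siNC and 6.82 to 8.54 FPKM with siSox9; of 6 endothelial markers 1 did, with 3.35 to 4.34 FPKM against 3.06 to 3.30 FPKM. Of 6 leukocyte markers 4 did, with sums of 92.6 to 99.1 FPKM with siNC and 103.7 to 114.0 FPKM with siSox9. Single genes carried much of these sums. Without *Col1a1*, which overlapped between groups, the fibroblast sum was 2.48 to 2.80 FPKM with siNC and 1.83 to 2.2 FPKM with siSox9. Of the 8 genes in that sum, *Pdgfra*, *Dcn* and *Fap* had the higher mean with siSox9 and 5 the lower. Of the endothelial genes *Kdr*, *Tie1* and *Tek* had the higher mean with siSox9, and *Pecam1*, *Cdh5* and *Emcn* the lower. With no filter *Emcn* was the only one of them that passed (adjusted p = 0.0331, limma). Without *Lyz2*, which rose from 71.9 ± 3.78 FPKM to 83.4 ± 3.91 FPKM (adjusted p = 0.0175, limma), the leukocyte sums overlapped, at 23.4 to 24.6 FPKM against 23.2 to 26.1 FPKM. With no filter *Lyz2* did not pass (adjusted p = 0.0575, limma). The sums of the smooth muscle and pericyte markers without *Mcam*, of the fibroblast markers and of the endothelial markers were thus lower in the same libraries in which *Cnn1*, *Lmod1* and *Myl9* were lower, and their part in those differences was not tested. In these bulk libraries fewer cells of a type and less RNA per cell cannot be told apart.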

How the data were processed

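Expression was read from 1 deposited table with 6 libraries of primary renal TECs after H/R, 3 siSox9 and 3 siNC. The authors deposited FPKM per gene and library, with no further scaling between libraries. The submitters' processing notes name HISAT2 2.1.0, Bowtie2 2.2.3, TopHat2 and mm9 without role or order. Gene positions in the table match GENCODE M21 on GRCm38 for 93.3% of the 30246 genes found there. The counter, the strand setting and the step that made FPKM are not given in the sources used here. Columns were matched to libraries by the siRNA and number in their names. Those of siSox9 are named for an oligo that is not siNC, and the labels hold no siRNA besides siNC and siSox9. All 6 sample columns were used.

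The test of differences was that of limma (version 3.58.1, in R version 4.3.3; lmFit, then eBayes with its trend option). Values were log2(FPKM + 1) of the 12009 genes averaging 1 FPKM or more, and p-values were adjusted by Benjamini-Hochberg with a threshold of 0.05. The fit had no replicate block, as the methods describe unpaired comparisons. The fit was tested on simulated reads with 1 fixed spread, which may differ from that of these libraries. It called 30 of 66 genes changed 1.2-fold, 54 of 56 changed 1.5-fold and 74 of 76 changed 2-fold. Of 10216 unchanged genes it called 16. The simulation held 200 changed genes, far fewer than the 3650 called in these libraries, so these rates may differ for that reason too. A gene that did not pass may thus hold a small change. Single values were compared with exact permutation tests. Whole reads were recovered with GENCODE M21 exon lengths, within 0.02 reads, for 27948 genes in all 6 libraries; they gave the read counts and an alternative test with limma voom, and reads of *Acta2*, *Myh11* and *Mylk* were not recovered. No 2 libraries were copies of each other: the chi-square averaged over genes was 1.89 to 6.87 for pairs within groups. The highest values were those of siNC replicate 1 against siNC replicates 2 (6.57) and 3 (6.87), which stood at 2.66 from each other. Shared 50-base stretches were counted over GENCODE M21 transcripts. Promoter sequences are those of RefSeq.

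The genes of the set and all lists were chosen with earlier results of these data known. All 10 genes are named, with *Sox9*; from each list the text names the 3 largest changes that passed and did not overlap, a fixed set of smooth muscle and family genes, and the markers; and for likeness to *Cnn1*, the 5 closest genes. A gene that the rule would name among the anchors is not reported here. Alternatives were a pseudocount of 0.1, no filter or a minimum average of 5 FPKM, TPM, median and quantile scaling, a replicate block, each library left out, and limma voom. All other steps ran in Python 3.11.15 with numpy 2.4.6, pandas 2.3.3 and, for plots, matplotlib 3.10.9.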

Additional observations from a re-analysis of the deposited data

How the results depend on the processing

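Over the 14 alternatives, the contractile genes other than *Cnn1* gave 3 lower and 1 higher in each. No tested gene among them changed direction or its side of the threshold in the alternatives that could test it (13 for *Acta2* and *Tagln*, whose reads were not recovered or whose mean was under 5 FPKM). *Cnn1*, given without a p, ranged from -1.26 to -1.19. *Lmod1* ranged from -0.78 to -0.60, *Myl9* from -0.55 to -0.49, *Tpm2* from -0.24 to -0.19 and *Cnn2* from 0.12 to 0.19. The largest adjusted p (limma) among *Lmod1*, *Myl9*, *Tpm2* and *Cnn2* was 0.0435, for *Cnn2*. *Smtnl2* and *Tpm3* among the relatives passed in each alternative that could test them.

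Counts outside the set moved more, and the cause was not tested. Over all genes, the number lower was 1376 with a mean of at least 5 FPKM, where fewer genes were tested, and 1342 with TPM. Leaving out 1 library gave 1488 to 2089 lower and 943 to 1564 higher, the lowest of both without siSox9 replicate 2. Of the relatives, 1 fell with no filter or quantile scaling, 2 with TPM or median centring, and 1 to 3 without 1 library. Of the myosin genes, 2 fell with no filter or limma voom, 0 with TPM, 3 with quantile scaling, and 1 to 2 without 1 library. Of the anchors, 0 rose with no filter, 2 with a mean of at least 5 FPKM, median centring or limma voom, and 0 to 1 without 1 library. Of the SRF list, 0 to 1 rose without 1 library.

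Libraries with the same replicate number did not deviate together (correlations of -0.0504 to 0.0649), beside -0.0817 to 0.0896 for different numbers. These values gave no sign of pairing, but with 3 libraries in each group they cannot exclude it. The fit with a replicate block gave 1373 higher and 1889 lower over all genes, 3 lower and 1 higher in the set, and 2 lower among the relatives. Depth limited *Tagln* and *Actg2* most, with 26 to 86 reads per library. In groups of 3 libraries no search for single outlying libraries was made.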
